A study of Mus musculus with 6 samples.

Results

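The sirtuins are the 7 proteins Sirt1 to Sirt7, a family of enzymes that remove acetyl and other acyl groups from lysines and consume NAD+ in doing so. The members were taken by symbol from the table of gene counts, which holds 24411 genes, and each of the 7 symbols had a single row. All 7 also matched a RefSeq gene and all 7 passed the filter on low counts, which left 12892 genes for the tests.

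RNA was taken from the extensor digitorum longus (EDL), a fast-twitch muscle of the hindlimb, of mice on a C57BL/6J background at the age of 50 weeks. The 3 control mice carried floxed alleles of Akt1 and Akt2 without Cre, and the 3 mAktDKO mice carried the same floxed alleles together with Mlc1f-Cre, in which the promoter of a myosin light chain gene drives the recombinase. Akt1 and Akt2 are kinases that act downstream of insulin and growth factors. The comparison asks how the RNA of fast-twitch muscle differs when both floxed genes are targeted in myofibres. Because Cre is driven by a gene of mature fast fibres, the endothelial, connective tissue, blood and nerve cells of the muscle keep their Akt genes, as satellite cells largely do, and all of them contribute RNA to each library. In such whole-tissue RNA, fewer cells of a type and less RNA per cell cannot be told apart. The 3 mAktDKO columns carry the numbers 1 to 3 and the 3 control columns the numbers 2 to 4, and the mice are named here by those numbers.

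Because a sirtuin splits NAD+ in every catalytic cycle, its activity follows the supply of this cofactor, and the family is known as a link between energy status, fasting and protein acylation. Sirt1, Sirt6 and Sirt7 are found mainly in the nucleus, Sirt2 mainly in the cytosol, and Sirt3, Sirt4 and Sirt5 in mitochondria. In skeletal muscle Sirt1 is best known for deacetylating the coactivator PGC-1α, and Sirt3 for deacetylating enzymes of oxidative metabolism.

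Of the 7 genes, 4 carry most of the comparisons that follow, and their promoters are shown first. Each window runs from 250 bases before to 50 bases after an annotated start site, is given 5′ to 3′ on the strand of its gene, and comes from RefSeq on GRCm38.p6, the assembly that mm10 names. The capitals mark matches, on either strand, to a fixed set of 8 short motifs: GTAAACA (FoxO), AAGGTCA (the core motif of oestrogen-related receptors), CACGTG (E-box), TGACGTCA (cAMP response element), GCATGCGC (part of the NRF1 motif), CCGGAAG (ETS), CCAAT and CCGCCC (Sp). Sirt3 was chosen because it had the greatest difference between the groups and shares its upstream region with another gene, Sirt1 because it differed in the other direction, Sirt5 for the single receptor motif in the family, and Sirt2 because it is the most abundant member. They lie at chr7:140882260-140882559 (minus strand) for Sirt3, chr10:63338986-63339285 (minus strand) for Sirt1, chr13:43365285-43365584 (plus strand) for Sirt5 and chr7:28766502-28766801 (plus strand) for Sirt2.
Sirt3: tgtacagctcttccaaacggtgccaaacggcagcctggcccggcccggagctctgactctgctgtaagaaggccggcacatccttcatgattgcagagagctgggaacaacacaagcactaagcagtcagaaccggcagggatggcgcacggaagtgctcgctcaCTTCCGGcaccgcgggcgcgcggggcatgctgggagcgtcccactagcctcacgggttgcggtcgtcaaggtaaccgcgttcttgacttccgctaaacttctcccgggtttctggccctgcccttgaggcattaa
Sirt1: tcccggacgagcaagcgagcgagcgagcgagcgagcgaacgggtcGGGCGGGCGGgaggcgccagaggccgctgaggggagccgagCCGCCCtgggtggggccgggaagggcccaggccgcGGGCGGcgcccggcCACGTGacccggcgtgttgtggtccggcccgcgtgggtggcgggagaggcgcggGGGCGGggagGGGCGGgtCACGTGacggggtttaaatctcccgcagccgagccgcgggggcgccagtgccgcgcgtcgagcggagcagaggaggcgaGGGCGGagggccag
Sirt5: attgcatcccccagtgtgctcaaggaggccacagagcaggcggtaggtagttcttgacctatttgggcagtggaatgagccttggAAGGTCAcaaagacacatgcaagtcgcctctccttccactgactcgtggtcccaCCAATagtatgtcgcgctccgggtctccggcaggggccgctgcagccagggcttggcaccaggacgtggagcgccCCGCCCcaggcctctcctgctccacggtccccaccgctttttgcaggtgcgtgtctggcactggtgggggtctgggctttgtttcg
Sirt2: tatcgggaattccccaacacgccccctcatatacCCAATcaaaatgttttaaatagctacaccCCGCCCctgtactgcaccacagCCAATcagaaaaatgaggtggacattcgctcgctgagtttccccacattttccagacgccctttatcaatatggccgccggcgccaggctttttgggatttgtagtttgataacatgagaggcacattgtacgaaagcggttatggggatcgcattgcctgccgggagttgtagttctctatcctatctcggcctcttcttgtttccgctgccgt

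The windows differed widely in base composition. The GC content was 79.0% in the Sirt1 window, 62.0% in that of Sirt5, 61.0% in that of Sirt3 and 50.0% in that of Sirt2, against a median of 52.7% over all 32851 windows in the table. The single capital run in the Sirt3 window is the ETS motif, read on the opposite strand, at 85 bases before the start site (chr7:140882388-140882394). The Sirt1 window holds CACGTG at 115 and at 43 bases before the start site, together with 7 matches to CCGCCC, of which one pair overlaps. The Sirt5 window holds AAGGTCA at 165 bases before the start site, and the Sirt2 window holds CCAAT at 216 and at 165 bases before it. These motifs are found in many genes: CCGGAAG was in 8.86% of all windows, CACGTG in 7.15%, AAGGTCA in 4.72%, CCAAT in 37.4% and CCGCCC in 35.7%. The 7 genes have 9 windows in the table, since Sirt3 and Sirt6 have another start site each. Of these 9, CCGCCC was in 6, CCGGAAG in 3 (Sirt3, Sirt6 and Sirt7), CCAAT in 3, GCATGCGC in 2 (Sirt6 and Sirt7), and CACGTG and AAGGTCA in 1 each. GTAAACA, which is in 3.65% of all windows, and TGACGTCA, which is in 1.79%, were in none of the 9, which says only that these letters are not in these windows.

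The targeted genes check the labels. Akt2 was at 51.3, 49.1 and 52.7 CPM (counts relative to the library's total, scaled between mice by TMM) in mAktDKO mice 1, 2 and 3 and at 172, 133 and 143 CPM in control mice 2, 3 and 4, and it fell in every mAktDKO mouse below every control (log2 fold change -1.55 ± 0.11 (SE), edgeR quasi-likelihood test, Benjamini-Hochberg adjusted p = 0.000923). Akt1 was at 58.9, 56.8 and 51.4 CPM against 66.4, 65.5 and 66.5 CPM, also without overlap, but it did not pass the test (log2 fold change -0.25 ± 0.080, adjusted p = 0.115 by the same test). The libraries held between 13738795 and 15445523 counts, so a gene at 3 counts lay at 0.180 to 0.227 CPM on the same TMM scale, and every sirtuin was above that level in every mouse. The labels name the mice only as separate samples, so the p-values measure the spread between these 6 samples.

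No gene of the lists that mark the muscle's cell types passed the test at an adjusted p under 0.01 by edgeR's quasi-likelihood test, and their levels are given as values. All 10 fast fibre genes examined had lower means in the mAktDKO muscle, 6 of them without overlap, against 47.5% of all genes with a lower fold change and 16.6% lower without overlap, and their summed level was 131282 to 146116 CPM against 150476 to 161298 CPM in the controls. All 6 leukocyte genes had higher means (92.4 to 109.5 against 68.7 to 93.9 CPM in sum), as had all 6 adipocyte genes (153 to 239.7 against 129 to 160.1 CPM). Without overlap, 3 of these leukocyte genes and 1 adipocyte gene were higher and 0 were lower, against 14.6% of all genes higher without overlap. All 6 fibroblast genes had higher means as well, 2 of them (Pdgfra and Dcn) without overlap. They summed to 18316 to 21771 CPM in the mAktDKO mice and to 7311 to 18434 CPM in the controls, of which control mouse 2 was the lowest. Col1a1 made up most of that sum. The summed slow fibre genes were at 679.8 to 1317 against 607 to 884 CPM, and the endothelial genes at 413 to 487 against 343 to 447 CPM. Of the 7 slow fibre genes, 6 had a fold change above 0, and the list's median log2 fold change was 0.44. For the endothelial list these were 4 of 6 and 0.16. The other lists gave 574 to 664 against 508 to 590.2 CPM for mural cells, 171 to 232 against 155 to 183 CPM for Schwann cells, 146 to 313 against 109 to 163 CPM for blood cells and 21.2 to 23.9 against 22.9 to 30.2 CPM for satellite cells. Cdh15 made up most of that last sum and was lower without overlap (log2 fold change -0.42). The other 3 satellite cell genes, Pax7, Calcr and Myf5, had fold changes above 0, and Myf5 was higher without overlap. The median log2 fold change of the satellite cell list was 0.15. The summed levels of the groups overlapped for every list except the fast fibre genes. Such a sum follows its most abundant genes, so single genes can stand apart where it overlaps. Higher without overlap were also 2 of 5 mural, 2 of 4 blood and 1 of 4 Schwann cell genes, with 0 lower. The slow fibre and endothelial lists had 0 genes without overlap. No marker gene was at 0 in all mice, and 1, the globin gene Hbb-bs, was at 0 in every control and at 9.23 to 23.5 CPM in the mAktDKO mice (adjusted p = 0.0180 by edgeR's quasi-likelihood test). Globin genes have near-identical copies between which the counting could split reads, so its value is uncertain, and this was not tested. The part of these shifts in the sirtuin values was not tested.

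Sirt2, which acts on tubulin and other cytosolic proteins, was by far the most abundant sirtuin transcript. Levels of different genes are compared here as CPM per kilobase of merged exons, as the mean over the 6 mice with the lowest and the highest mouse in parentheses. Sirt2 stood at 22.7 (20.6 to 25.7), Sirt3 at 5.78 (4.26 to 8.76) and Sirt1 at 3.37 (3.00 to 3.69). Sirt4 followed at 2.61 (2.03 to 3.12), Sirt7 at 1.85 (1.43 to 2.29), Sirt5 at 1.67 (1.28 to 2.25) and Sirt6 at 1.11 (0.955 to 1.27). The ranges of neighbours in this order did not overlap between Sirt2 and Sirt3, between Sirt3 and Sirt1, or between Sirt5 and Sirt6. They overlapped for the other neighbours: Sirt4 was below Sirt1 in 5 of 6 mice, Sirt7 below Sirt4 in 6 of 6, and Sirt5 below Sirt7 in 4 of 6. Of the 12436 tested genes with a length, 87.5% were below Sirt2 on this scale, 58.3% below Sirt3, 43.6% below Sirt1 and 19.5% below Sirt6. The exon models that the counting used are not given in the sources used here, and the order depends on them. With the median length of coding transcripts in place of the merged exons, Sirt5 moved ahead of Sirt4 and Sirt7. Without any length, Sirt1 moved ahead of Sirt3 and Sirt5 ahead of Sirt7.

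**Figure D1:**
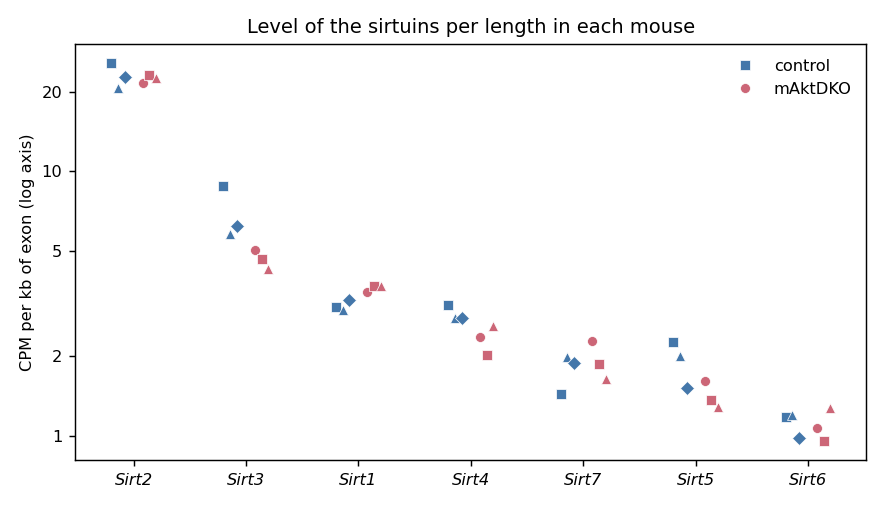
Level of each sirtuin in CPM per kilobase of merged exons on a log axis, with one symbol per mouse and the colour giving the group. Sirt2 lies above all the others at a mean of 22.7 over the 6 mice, and Sirt6 is the lowest at 1.11.

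None of the 7 sirtuins was called at an adjusted p under 0.01 by edgeR's quasi-likelihood test, where 0.0233% of all tested genes were called. With DESeq2, where 3.55% of the 9616 genes with an adjusted p were called, 0 of the 5 sirtuins with one were called, and Sirt6 and Sirt7 had none. At an unadjusted p under 0.05, edgeR had 3 of the 7, Sirt3 and Sirt5 with lower and Sirt1 with higher levels in the mAktDKO mice, which is 42.9% of the family against 24.5% of all genes. DESeq2 had only Sirt3 there, 14.3% of the family, against 14.1% of its 17357 genes, so Sirt1 and Sirt5 were not among those it had at that level. The groups did not overlap for 3 of 7 (Sirt1, Sirt3 and Sirt4), against 31.1% of all genes, of which 16.6% were lower and 14.6% higher in the mAktDKO mice. At an adjusted p under 0.05, where edgeR's quasi-likelihood test called 0.915% of all genes as lower and 0.264% as higher, 0 of the 7 were called. The median log2 fold change of the family was -0.037, beside 0.017 over all genes tested.

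**Figure D2:**
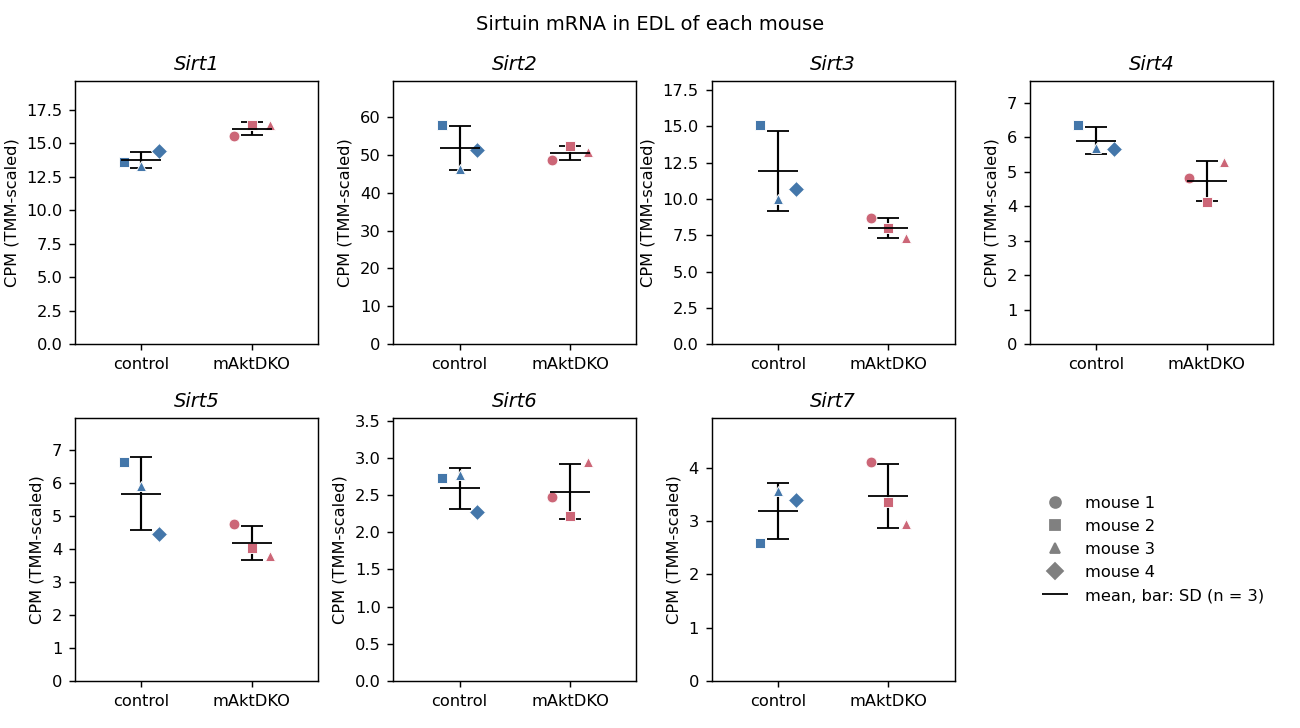
CPM (TMM) of each sirtuin in each mouse, with the 3 control mice and the 3 mAktDKO mice side by side as symbols, the horizontal line at the mean and the error bar as the SD (n = 3). Sirt3 and Sirt4 are lower in all 3 mAktDKO mice than in any control, Sirt1 is higher in all 3, and the groups overlap for the other 4 genes.

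Among the mitochondrial sirtuins, Sirt3, the main deacetylase of the mitochondrial matrix, was at 8.69, 8.03 and 7.34 CPM in mAktDKO mice 1, 2 and 3 and at 15.1, 9.99 and 10.7 CPM in control mice 2, 3 and 4. These come from 137, 134 and 107 counts against 216, 137 and 141 counts. Every mAktDKO mouse was below every control, and control mouse 2, which was also the lowest in fibroblast genes, stood well above the other controls; the part of that difference between libraries was not tested. The means were 8.02 ± 0.675 against 11.9 ± 2.78 CPM (SD, n = 3 each), a difference of -32.8% with a 95% confidence interval from -48.6 to -12.1%. The log2 fold change was -0.57 ± 0.17 (SE), which 2.82% of all tested genes equalled or passed in the downward direction and 8.63% in size. It did not pass the edgeR quasi-likelihood test after Benjamini-Hochberg adjustment over all genes (adjusted p = 0.100, against 0.0672 with DESeq2). Without control mouse 2, the difference was -0.36.

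Sirt4, a mitochondrial sirtuin that restrains glutamate dehydrogenase, was at 4.82, 4.13 and 5.28 CPM in mAktDKO mice 1, 2 and 3 and at 6.36, 5.69 and 5.67 CPM in the controls. The groups did not overlap, by a margin of less than the spread within the mAktDKO group. The log2 fold change was -0.32 ± 0.16 (95% interval -0.67 to 0.033), and the adjusted p of edgeR's quasi-likelihood test was 0.241.

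Sirt5, which removes succinyl, malonyl and glutaryl groups rather than acetyl groups, was at 4.76, 4.01 and 3.77 CPM in the mAktDKO mice and at 6.64, 5.91 and 4.46 CPM in the controls. Control mouse 4 lay below mAktDKO mouse 1, so the groups overlapped. The log2 fold change was -0.44 ± 0.19, with an interval from -0.87 to -0.0073 and an adjusted p of 0.198 by edgeR's quasi-likelihood test. All 3 mitochondrial members thus had lower means in the mAktDKO muscle, and none of the 3 passed the test.

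The nuclear sirtuins showed no shared direction. Sirt1, the deacetylase of histones, p53, FoxO factors and PGC-1α, was at 15.5, 16.4 and 16.3 CPM in mAktDKO mice 1, 2 and 3 and at 13.6, 13.3 and 14.4 CPM in control mice 2, 3 and 4. All 3 mAktDKO mice were above all 3 controls, and both groups were tight, with means of 16.1 ± 0.463 against 13.8 ± 0.606 CPM. The difference was 16.8% (95% interval 0.6 to 35.6%), a log2 fold change of 0.22 ± 0.095 with an adjusted p of 0.188 by edgeR's quasi-likelihood test.

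Sirt6, which acts on histone H3 and in DNA repair, was at 2.47, 2.22 and 2.95 CPM against 2.73, 2.77 and 2.27 CPM, and the controls lay within the range of the mAktDKO mice. Its log2 fold change was -0.029 ± 0.21, and the interval of -0.51 to 0.46 leaves room for a sizeable difference in either direction. The lowest library held 30 counts of Sirt6, for which counting error alone gives an exact 95% Poisson interval from 20.2 to 42.8.

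Sirt7, a sirtuin of the nucleolus that takes part in the transcription of ribosomal RNA genes, was at 4.12, 3.35 and 2.95 CPM in the mAktDKO mice and at 2.59, 3.57 and 3.40 CPM in the controls. The highest and the second lowest of the 6 values both came from mAktDKO mice. The log2 fold change was 0.13 ± 0.21 (95% interval -0.36 to 0.61), and the adjusted p of edgeR's quasi-likelihood test was 0.741. Sirt7 was the single sirtuin with an estimate that was not a whole number, 36.93 in control mouse 2, which arises where reads are shared between genes.

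Sirt2, the cytosolic member, was at 48.5, 52.3 and 50.7 CPM in the mAktDKO mice and at 57.9, 46.3 and 51.3 CPM in the controls, so that the controls enclosed the mAktDKO mice. The means were 50.5 ± 1.91 and 51.8 ± 5.80 CPM. Its log2 fold change of -0.037 ± 0.096 had the interval -0.25 to 0.18 (adjusted p = 0.838 by edgeR's quasi-likelihood test). With 635 to 873 counts per library, Sirt2 had the most counts of the 7.

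**Figure D3:**
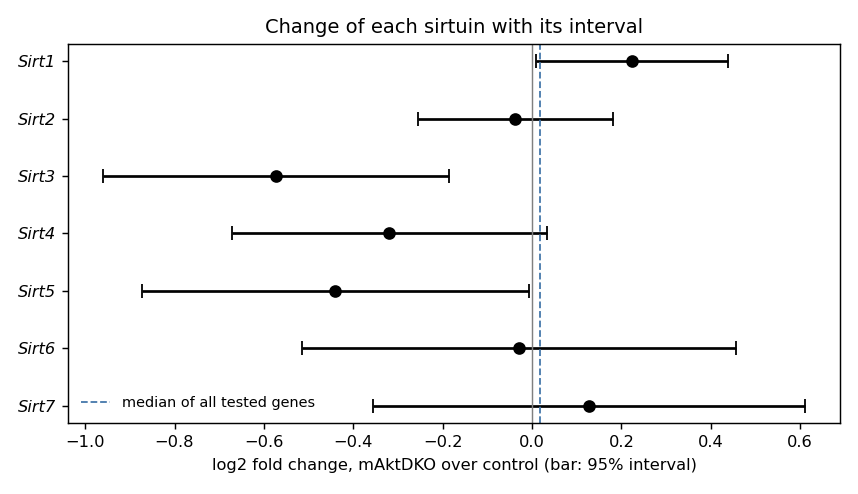
Log2 fold change of each sirtuin (mAktDKO minus control) with its 95% confidence interval from the edgeR fit, and the dashed line at the median of all tested genes. The intervals of Sirt3 and Sirt5 lie below 0, that of Sirt1 lies above 0, and the other 4 include 0.

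**Figure D4:**
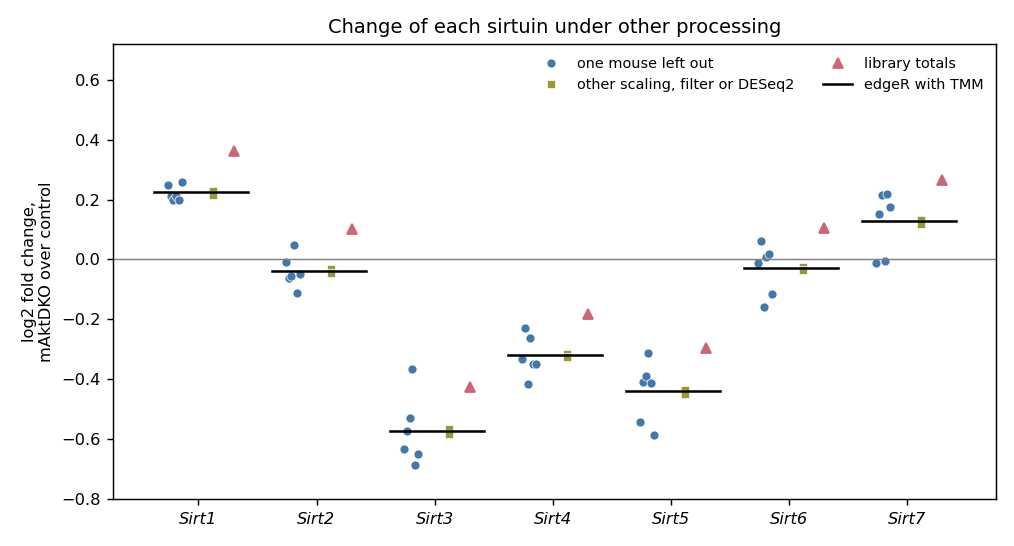
Log2 fold change of each sirtuin (mAktDKO minus control) under the edgeR fit with TMM (line), with 1 mouse left out (circles), under other scalings, filters or DESeq2 (squares) and with library totals (triangles). Sirt3 lies between -0.69 and -0.36 when a mouse is left out and Sirt1 between 0.20 and 0.26, while Sirt2, Sirt6 and Sirt7 lie on both sides of 0.

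The balance between compartments can be read within a mouse, where the scaling between libraries drops out. The mitochondrial members made up 24.1, 21.3 and 21.8% of the summed sirtuin level per kilobase in mAktDKO mice 1, 2 and 3 and 31.1, 28.4 and 26.6% in the controls, and the groups did not overlap. The nuclear members made up 18.3, 17.2 and 17.7% against 12.5, 16.5 and 15.6%, again without overlap. Sirt2 made up 57.6, 61.5 and 60.5% against 56.5, 55.1 and 57.8%, where mAktDKO mouse 1 lay below control mouse 4. The ratio of Sirt3 to Sirt1 per kilobase was 1.44, 1.26 and 1.16 in the mAktDKO mice and 2.86, 1.93 and 1.90 in the controls, so that on this scale Sirt3 exceeded Sirt1 in each of the 6 mice and by less in every mAktDKO mouse. The shares and the ratio are descriptions of the values given above and add no separate support. Sirt3 and Sirt1 had the lowest and the highest log2 fold change of the family, so their ratio separates the groups by that choice. The shares of a mouse add up to the whole, so a lower mitochondrial share raises the others. With 3 mice against 3, an exact two-sided permutation test cannot go below 0.1.

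Sirt3 shares its upstream region with Psmd13, a subunit of the proteasome lid that is read in the opposite direction. Psmd13 starts 84 bases from the Sirt3 start site of the window shown. Psmd13 was at 46.1, 43.2 and 43.6 CPM in the mAktDKO mice and at 60.3, 51.1 and 49.8 CPM in the controls. The groups did not overlap, and control mouse 2 was the highest for Psmd13 as it was for Sirt3 (log2 fold change -0.28 ± 0.094, adjusted p = 0.127 by edgeR's quasi-likelihood test). Over all genes, 16.6% were lower without overlap, and control mouse 2 was also the highest for Sirt5, Esrra and Hdac5. Whether Sirt3 and Psmd13 share regulation was not tested. Sirt3 relative to Psmd13 was 0.188, 0.186 and 0.168 in the mAktDKO mice and 0.251, 0.195 and 0.214 in the controls. The capital run in the Sirt3 window begins, on the strand of Sirt3, at the first base of Psmd13.

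At the other end, Sirt3 overlaps Ric8a on the opposite strand by 69 bases. The libraries were made with a directional kit, but the strand setting of the counting is not given in the sources used here, so reads in that stretch may belong to either gene. Ric8a, a chaperone of G protein alpha subunits, differed by -0.14 on the log2 scale (adjusted p = 0.464, edgeR's quasi-likelihood test).

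Sirt2 and Nfkbib, an inhibitor of NF-κB, start 107 bases apart in opposite directions. Nfkbib was at 8.88, 8.87 and 9.05 CPM in the mAktDKO mice and at 12.3, 9.85 and 10.4 CPM in the controls, without overlap, at a log2 fold change of -0.28 ± 0.12 (adjusted p = 0.201 by edgeR's quasi-likelihood test). The groups overlapped for Sirt2 but not for its neighbour, and Sirt2 relative to Nfkbib was 5.46, 5.90 and 5.61 in the mAktDKO mice against 4.70, 4.70 and 4.95 in the controls. Ankrd24, which starts 28 bases from Sirt6, differed by -0.030 ± 0.39. The other neighbours that were tested lay between -0.31 (Dnajc12, beside Sirt1, lower without overlap) and 0.55 (BC025920, beside Sirt6, higher without overlap) on the log2 scale. Between them were Nol7 beside Sirt5 at -0.19, also without overlap, and, with overlap, Pcyt2 and Mafg beside Sirt7 at -0.15 and -0.13, Herc4 beside Sirt1 at -0.056, Bet1l beside Sirt3 at -0.033 and Rinl beside Sirt2 at 0.34. Over all genes, 16.6% were lower and 14.6% higher without overlap. None of these neighbours was called at an adjusted p under 0.01 by edgeR's quasi-likelihood test, and no neighbour of Sirt4 was tested.

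The mice that were high or low for one sirtuin can be set against all other genes by Pearson's correlation of log2 CPM over the 6 mice, which is a description in which both groups enter. The closest genes were Egr3 and Nfatc2ip for Sirt1 (r = 0.995 and 0.990) and Smyd4 and Brap for Sirt2 (0.984 and 0.981). For the mitochondrial members they were Pomk and Pex5 for Sirt3 (0.997 and 0.994), Sgsm3 and Ddx28 for Sirt4 (0.998 and 0.996), and Lrrc38 and Prmt10 for Sirt5 (0.996 for both). Bbs9 and Ppp2r3c were closest to Sirt6 (0.984 and 0.981), and Hist1h2ao and Hmha1 to Sirt7 (0.995 and 0.987). The number of genes above 0.95 differed between the members: 186 with Sirt3, 180 with Sirt4, 119 with Sirt5, 103 with Sirt1, 47 with Sirt7, 19 with Sirt2 and 7 with Sirt6. How many such values would arise by chance over only 6 mice was not tested.

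The genes around the sirtuins were taken from lists of NAD+ synthesis, other NAD+ consumers, proteins that mitochondrial sirtuins act on, and nuclear partners. No gene of these lists was called at an adjusted p under 0.01 by edgeR's quasi-likelihood test. At an unadjusted p under 0.05 the mitochondrial list had 5 of 12 lower and 0 higher, the nuclear list 1 lower and 2 higher of 16, the NAD+ synthesis list 2 lower and 0 higher of 11 tested, and the list of consumers 0 lower and 1 higher of 9 tested, against 13.1% lower and 11.4% higher over all genes.

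In NAD+ synthesis, Nampt, the rate-limiting enzyme of the salvage route, was at 117, 137 and 145 CPM in the mAktDKO mice and at 116, 113 and 119 CPM in the controls. The groups overlapped by mAktDKO mouse 1 alone, and the log2 fold change was 0.20 ± 0.093 (adjusted p = 0.225 by edgeR's quasi-likelihood test). Nmnat1, the nuclear enzyme of the last step, was at 5.83, 5.33 and 6.10 against 7.55, 10.2 and 8.09 CPM. All 3 mAktDKO mice were lower, at a log2 fold change of -0.58 ± 0.15 with an adjusted p of 0.0793 by the quasi-likelihood test of edgeR. Nmrk2, the nicotinamide riboside kinase of muscle, was at 7.42, 4.79 and 18.9 against 23.8, 12.3 and 27.2 CPM. Its 3 mAktDKO mice were spread so widely that mouse 3 lay above control mouse 3, and a log2 fold change of -1.04 ± 0.46 had an adjusted p of 0.202 by edgeR's quasi-likelihood test. The median log2 fold change of the 11 genes tested was -0.10, and that of the 5 genes at or above 10 CPM was 0.036, which is of the other sign.

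Among the other enzymes that consume NAD+, Cd38, a glycohydrolase found on leukocytes and endothelium, was at 17.2, 21.7 and 14.3 CPM in the mAktDKO mice and at 10.8, 16.3 and 11.0 CPM in the controls. Control mouse 3 lay above mAktDKO mouse 3, so the groups overlapped (log2 fold change 0.48 ± 0.20, adjusted p = 0.177 by edgeR's quasi-likelihood test). The summed leukocyte markers were at 92.4 to 109.5 CPM in the mAktDKO mice and at 68.7 to 93.9 CPM in the controls, which overlap. Of the 6 markers, 3 were higher without overlap, against 14.6% of all genes. The part of these markers in the Cd38 value was not tested. Tnks2, a tankyrase, differed by -0.17 and Parp4 by 0.20 on the log2 scale, with adjusted p-values of 0.212 and 0.300 by the same test.

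Of the 12 genes for proteins that mitochondrial sirtuins act on, 11 had a fold change below 0, against 47.5% of all genes, and the groups did not overlap for 5, all lower, against 16.6% of all genes lower without overlap. The median log2 fold change was -0.21, beside 0.017 over all genes. The fast fibre markers had a median of -0.21 as well, with 10 of 10 below 0, and their part in the values of this list was not tested. Ndufa9, a subunit of complex I, was at 143, 140.3 and 149 CPM against 189.6, 193 and 169 CPM, with no overlap (log2 fold change -0.35 ± 0.082, adjusted p = 0.0623 by edgeR's quasi-likelihood test). Atp5f1a, listed in the table as Atp5a1, encodes the alpha subunit of ATP synthase and was at 1665 ± 62.2 against 2155 ± 150.4 CPM, again with every mAktDKO mouse the lower (log2 fold change -0.37 ± 0.093, adjusted p = 0.0714 by edgeR's quasi-likelihood test). Opa1, the fusion protein of the inner membrane, differed by -0.24 ± 0.081 (adjusted p = 0.125 by edgeR's quasi-likelihood test), also without overlap. Sdha, the catalytic subunit of complex II, differed by -0.25 on the log2 scale without overlap (adjusted p = 0.149 by edgeR's quasi-likelihood test). For Sod2 and Idh2, also known as substrates of Sirt3, the groups overlapped. Sod2, the mitochondrial superoxide dismutase, was at 326 ± 13.5 against 340.3 ± 11.2 CPM (SD, n = 3 each). Idh2, the mitochondrial isocitrate dehydrogenase that makes NADPH, was at 165 ± 14.6 against 177 ± 76.7 CPM, with control mouse 2 at 266 CPM and the other controls at 138 and 129 CPM.

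The nuclear list held the single gene of these lists with an adjusted p under 0.05. Esrra, the oestrogen-related receptor alpha that drives genes of oxidative metabolism, was at 53.1, 47.0 and 46.0 CPM in the mAktDKO mice and at 86.2, 72.6 and 68.7 CPM in the controls. Every mAktDKO mouse was well below every control, and control mouse 2 was again the highest (log2 fold change -0.64 ± 0.11, adjusted p = 0.0396 by edgeR's quasi-likelihood test). At the threshold of 0.05, 1.18% of all tested genes passed.

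Ppargc1a, which encodes the Sirt1 substrate PGC-1α, was at 82.0, 54.8 and 89.4 CPM in the mAktDKO mice and at 59.3, 68.1 and 64.0 CPM in the controls. The mAktDKO mice lay on both sides of the controls (log2 fold change 0.24, adjusted p = 0.382 by edgeR's quasi-likelihood test). Crebbp, an acetyltransferase, and Trp53, the p53 gene, were both higher in every mAktDKO mouse than in any control, by 0.21 and 0.31 on the log2 scale, with adjusted p-values of 0.152 and 0.179 by edgeR's quasi-likelihood test. Of the 16 genes in this list, 3 were higher and 1 was lower without overlap, against 14.6% and 16.6% of all genes.

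**Figure D5:**
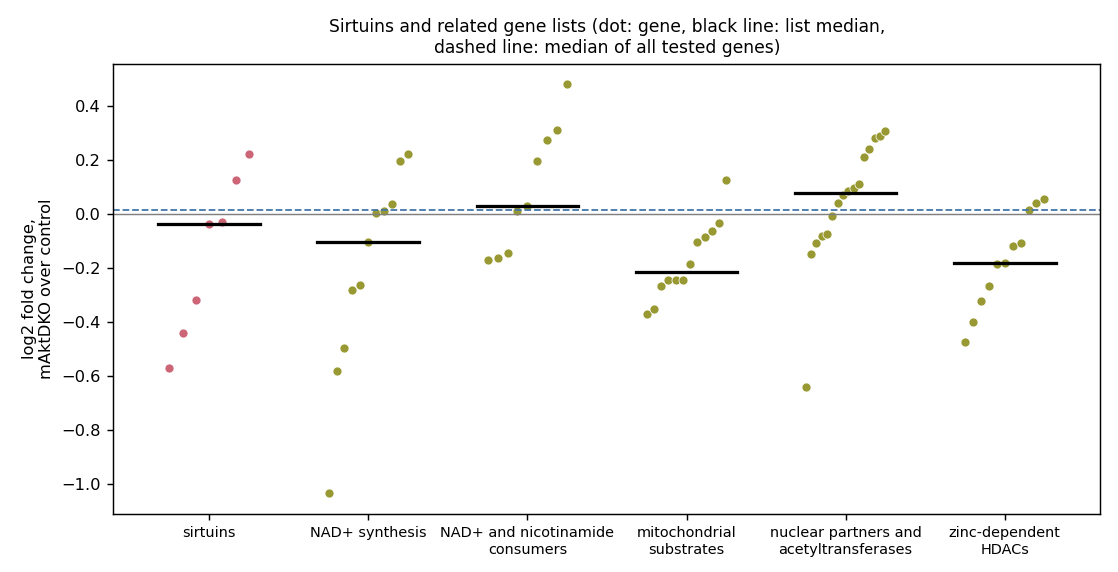
Log2 fold change (mAktDKO minus control) of every tested gene in each list around the sirtuins, one point per gene, with the sirtuins at the left, the list's median as a black line and the median of all genes as a dashed line. The mitochondrial substrates have the lowest median of the 6 sets, -0.21, and the sirtuins themselves lie at -0.037.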

How the data were processed

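RNA of the EDL from 3 mAktDKO and 3 control mice was measured. The authors made rRNA-depleted, directional libraries, sequenced 37 bp paired-end reads, demultiplexed them with bcl2fastq 2.19.0, aligned them to mm10 with STAR (2.6.2b in the study's methods, 2.6.1b in the submitters' processing notes) and ran RSEM 1.3.1 for the gene level. What was deposited is RSEM's expected counts without scaling, and 3.36 to 4.09% of the values in a mouse are not whole. The annotation and strand setting of the counting are not given in the sources used here. No column of another series was in the table.

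The counts were rounded and tested in R 4.3.3 with edgeR 4.0.16: filterByExpr (minimum count 10), TMM scaling, the quasi-likelihood test of mAktDKO against control with no covariate, and Benjamini-Hochberg adjustment over all 12892 genes tested. A gene was called at an adjusted p under 0.01. Levels per kilobase used the merged exons of GENCODE M21 basic transcripts. Of 24411 symbols, 23191 matched RefSeq directly. Intervals are at the 95% level, and Poisson intervals and the floor of 3 counts cover counting error only. DESeq2 1.42.0, other scalings and filters, and leaving out each mouse were the alternatives. The fit was tested on simulated counts for this comparison, in which it recovered 119 of 200 genes changed 2-fold (59.5%) and made 4 false calls among 12892 genes. Every sirtuin estimate was smaller than 2-fold, so this share does not say how often such differences would be called.

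The members and gene lists were chosen with earlier results of these data known, and no list was tested as a set. In addition to the sirtuins, the genes named are the 3 with the smallest p in each related list, with Nampt, Ppargc1a, Sod2 and Idh2, Sdha, which was chosen after its value was seen, the nearest neighbours of each sirtuin that were tested, and the 2 genes most correlated with each. Protein sequences were not analysed here.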

Additional observations from a re-analysis of the deposited data

How the results depend on the processing

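No sirtuin with an adjusted p was called at 0.01 in any of the alternatives run (DESeq2 gave none for Sirt6 and Sirt7), and none at 0.05 in the edgeR fit of all mice. The number at an unadjusted p under 0.05 was between 1 and 3. Of the alternative log2 fold changes, 76 kept their sign and 8 did not. With library totals, which moved the median of all genes from 0.017 to 0.16, Sirt2 was at 0.10 and Sirt6 at 0.11, which is -0.052 and -0.050 relative to that median. Under the same scaling Sirt1 was at 0.36, Sirt3 at -0.43, Sirt4 at -0.18, Sirt5 at -0.30 and Sirt7 at 0.27. With 1 mouse left out, the log2 fold change of Sirt1 was 0.20 to 0.26, of Sirt2 -0.11 to 0.049, of Sirt3 -0.69 to -0.36, of Sirt4 -0.42 to -0.23, of Sirt5 -0.59 to -0.31, of Sirt6 -0.16 to 0.063 and of Sirt7 -0.013 to 0.22. The values that changed sign in this way were Sirt2 at 0.049, Sirt6 at 0.0082 and Sirt7 at -0.0052 without control mouse 2, Sirt6 at 0.020 without control mouse 3 and at 0.063 without mAktDKO mouse 2, and Sirt7 at -0.013 without mAktDKO mouse 1; the cause was not tested. The adjusted p of Sirt3 ranged from 0.0672 to 0.300 and that of Sirt1 from 0.0852 to 0.437. The 3 genes called over the whole table became 32 without a filter, 152 at an adjusted p under 0.05, 341 with DESeq2 and 0 to 8 with 1 mouse left out. No paired analysis was possible because the numbers of the controls differ between columns (2 to 4) and labels (1 to 3) and so pair no mice. Sirt4, Sirt5, Sirt6 and Sirt7 had between 30 and 95 counts per library.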

Other observations

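The zinc-dependent histone deacetylases, which remove acetyl groups without NAD+, can be set beside the sirtuins. Per kilobase of exon, Sirt2 was the most abundant of the 18 members of both families (22.7 CPM per kilobase), ahead of Hdac3 at 15.9, and Sirt6 was the 17th. This order depends on the length: without it, Hdac5 had higher means than Sirt2. They were 55.4 against 50.5 CPM in the mAktDKO mice and 69.3 against 51.8 CPM in the controls. Of the 11 zinc-dependent members, 8 had a fold change below 0 (47.5% of all genes did), the groups did not overlap for 3, all of them lower (16.6% of all genes), and the median log2 fold change was -0.18. None was called at an adjusted p under 0.01 by edgeR's quasi-likelihood test, and 1 was lower at an unadjusted p under 0.05 (13.1% of all genes). Hdac5, a class IIa repressor of muscle genes, was at 54.9, 54.8 and 56.5 CPM in the mAktDKO mice and at 87.3, 60.8 and 59.8 CPM in the controls. Control mouse 2 alone stood far above the rest (log2 fold change -0.32 ± 0.14, adjusted p = 0.196 by edgeR's quasi-likelihood test). Hdac8 and Hdac11 differed by -0.47 and -0.40 on the log2 scale, with adjusted p-values of 0.232 and 0.276 by the same test, from fewer than 10 CPM each.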
